A study of Rattus norvegicus with 4 samples.

Results

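The genes described here are transcription factors of the AP-1 and EGR families: Jun, Junb, Jund, Fos, Fosb, Fosl1, Fosl2, Atf3, Egr1 and Egr2. They were chosen by name, through array probes whose accession belongs by RefSeq to 1 of these 10 rat symbols, and not by their measured values. All 10 had at least 1 probe, with 15 probes and 26 spots on each array, of 16581 genes with a named probe. RNA came from NR8383, a rat macrophage line started from lung lavage cells of a normal rat, which grows as a mix of attached and floating cells. The series holds 1 group of 4 replicates, kept for 4 h in water (H2O) as a control condition tagged ALI, a tag that the labels leave unexplained. The cells were at 20 passages and had been in flasks for 48 h, and all 4 samples share this handling. No other condition was analysed here, so nothing below compares a treatment with a control, and the only spread available is that between the 4 arrays. NR8383 is 1 cell line, so values for other macrophages cannot be read from it.

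AP-1 is a dimer built from 1 Jun protein and either another Jun protein, a Fos protein or a factor of the ATF family, held together by a leucine zipper. EGR proteins bind DNA through zinc fingers as single molecules. Many of these genes belong to the immediate early genes, which cells switch on within minutes of a growth factor, a microbial product or stress, without making new protein first, and whose RNA is often short-lived. In macrophages AP-1 is known for driving cytokine, chemokine and protease genes, and EGR1 and EGR2 for parts of monocyte to macrophage maturation.

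Each sample was hybridised to 1 one-colour Agilent array. The values are processed spot intensities, given here as such or on the log2 scale after division by the 75th percentile of all gene spots of that array, so that a value of 0 equals that percentile. This percentile lay between intensities of 831 and 1237, highest on replicate 3, and between 49.2% and 50.3% of gene spots were well above background by the scanner software's flag. Of 12 macrophage markers 11 were detected, including Cd68, Csf1r and Spi1 and without Cd163, and 3 of 7 alveolar macrophage markers were (Pparg, Fabp4 and Siglec5, without Marco, Chi3l1, Krt19 and Car4). No probe of the 5 alveolar type 2 or the 4 neutrophil markers passed on a single array. The 5 alveolar type 1 markers gave 0 detected genes, with Hopx above background on 1 array. Detected from other lists were 3 of 5 endothelium markers (Pecam1, Cdh5 and Vwf) and 1 of 5 fibroblast markers (Dcn). So were 1 of 5 T cell markers (Cd4) and 1 of 3 B cell markers (Pax5). In a bulk sample, fewer cells with a transcript and less of it per cell cannot be told apart.

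Detected here means that 1 or more probes of the gene carried the flag "well above background" on all 4 arrays. By that rule 7 of the 10 genes were detected: Jun, Junb, Jund, Fosl2, Atf3, Egr1 and Egr2. Fosb was well above background on 1 array, and Fos and Fosl1 on none. Among all 16581 named genes the share detected was 51.0%. No test of the difference was made, since the genes were picked by name and number only 10. All Jun genes were thus detected, and of the 4 Fos genes only Fosl2 was.

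**Figure D1:**
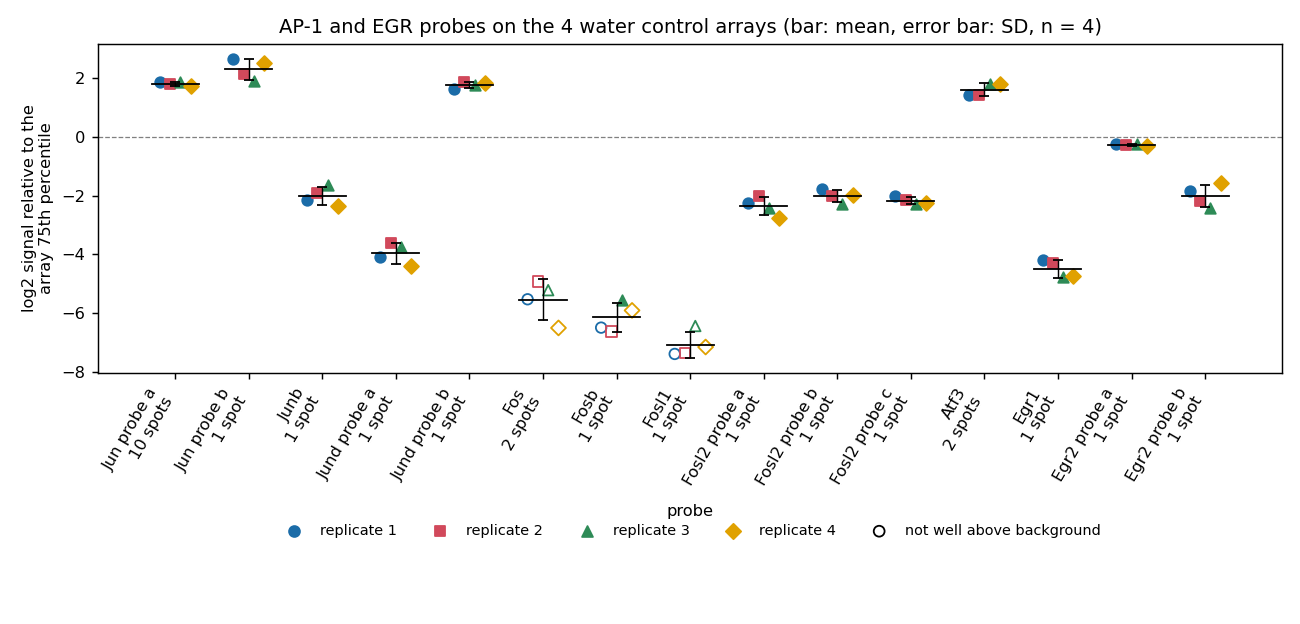
Log2 signal over the 75th percentile (y axis) for each of the 15 probes (x axis) on replicates 1 to 4 (4 marker shapes), with the mean as a bar and the SD as an error bar (n = 4); open markers were not well above background. Open markers are seen for the Fos, Fosb and Fosl1 probes alone, and the Jun and Egr2 probes differ in their scatter. Probes differ in affinity, so heights are not to be ranked between probes.

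Jun encodes c-Jun, the strongest activator among the Jun proteins, and its transcript was read by 2 probes that are both well above background on every array. The probe printed 10 times gave a mean intensity of 3244, 3246, 4529 and 2759 on replicates 1 to 4. On the log2 scale relative to the 75th percentile this was 1.88, 1.80, 1.87 and 1.73, so the 4 arrays lay close together (1.82 ± 0.07, SD, n = 4 arrays). Within an array its spots were also close, with an SD of 0.042 to 0.066 on the log2 scale over 9 or 10 spots. The second Jun probe, printed once, read 5568, 4100, 4639 and 4817, or 2.66, 2.14, 1.91 and 2.53 relative to the 75th percentile (2.31 ± 0.35, SD, n = 4 arrays). After scaling, replicates 1 and 4 were high and replicate 3 was lowest on this probe (replicate 2 as an intensity), while the 10-spot probe had replicate 3 next to replicate 1 at the top. The spread of the single-spot probe was wider than that of 96.9% of the 575 single-spot probes within 0.5 of its log2 level, whose median SD was 0.115. The 10-spot probe stood at percentile 22.9 of the 83 probes of its kind. Jun can therefore be given as detected, but its spread between cultures depended on which probe was read.

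Junb encodes JunB, which dimerises like c-Jun but is the weaker activator at many sites. Its single spot read 197, 250.3, 401 and 162 on replicates 1 to 4, well above background each time. Relative to the 75th percentile this was -2.16, -1.90, -1.63 and -2.36 (-2.01 ± 0.32, SD, n = 4 arrays), with replicate 3 highest and replicate 4 lowest. Jund, whose product JunD is the least induced of the Jun proteins in most cells, had 2 probes that carry the accessions of different Jund transcript records. The brighter one read 2712, 3405, 4241 and 2951, or 1.63, 1.87, 1.78 and 1.83 relative to the 75th percentile (1.78 ± 0.11, SD, n = 4 arrays). The dimmer one read 51.0, 75.9, 91.3 and 39.7, or -4.11, -3.62, -3.76 and -4.39 (-3.97 ± 0.35, SD, n = 4 arrays). After scaling, both Jund probes had replicate 2 highest, while as intensities both had replicate 3 highest. On the scaled values replicate 4 was second on the brighter probe and lowest on the dimmer one.

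The Fos proteins pair poorly with each other and bind DNA mostly together with a Jun protein. Fos, the founding member and the usual marker of a recent stimulus, was read by 1 probe with 2 spots. These spots read 25.1 and 14.3 on replicate 1, 31.3 and 30.3 on replicate 2, 31.3 and 35.0 on replicate 3, and 10.4 and 7.99 on replicate 4. On replicates 2 and 3, 1 of the 2 spots was marked well above background and neither was on replicates 1 and 4, so the probe passed on no array. The median negative control spot read 4.10 to 4.75, and the dimmest spot marked well above background read 18.1 to 21.5, depending on the array. Fos was thus between these levels on replicate 4 and on 1 spot of replicate 1, and above the dimmest marked spot elsewhere.

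Fosb, which encodes a Fos protein known for lasting forms in stimulated neurons, had 1 spot that read 9.70, 9.36, 26.1 and 13.8 on replicates 1 to 4. Only replicate 3 was marked well above background. Fosl1, the gene of Fra-1, which tumour and stimulated cells often carry, read 5.21, 5.68, 14.2 and 5.80, and no array was marked. Replicate 3 was the high array for both genes, though for Fosl1 it stayed under the dimmest marked spot of that array, 20.7. A looser flag of the same software, positive and significant against the local background, was set for Fos and Fosb on all 4 arrays and for Fosl1 on replicate 3 alone. By that flag 9 of the 10 genes counted as detected, against 60.4% of all named genes. With the limit at the 99th percentile of the negative controls, taken on the median signal of a spot before the software's processing, 8 did, Fosb being added, against 55.7% of all named genes. With the same percentile taken on the processed intensity, a rule added after seeing the data, 7 did, Fosb and Fos being left out, against 55.1% of all named genes. The calls for Fos and Fosb thus rest on where the limit is set, and Fosl1 passed none of these rules.

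**Figure D2:**
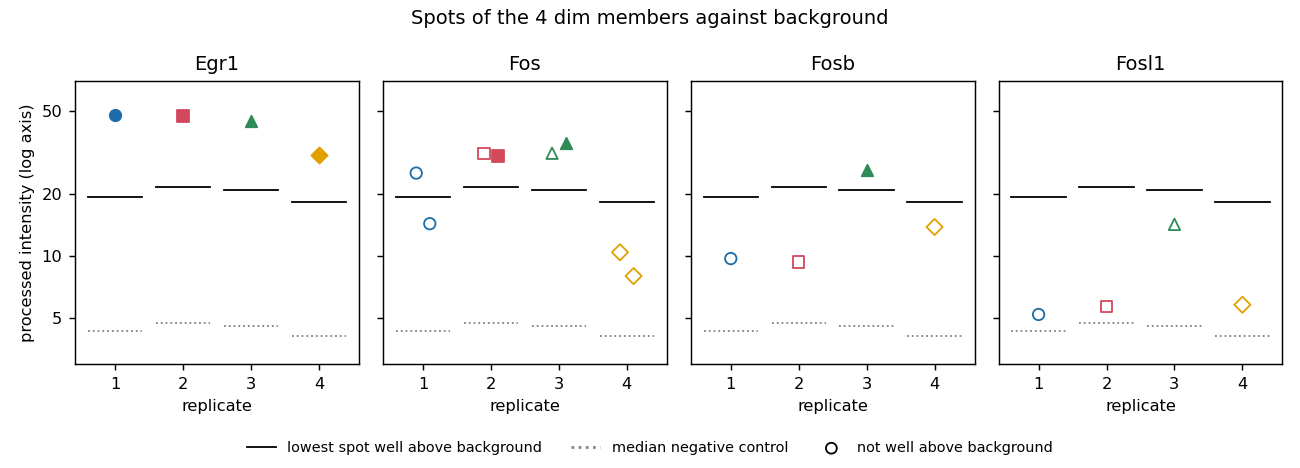
Processed intensity (y axis, log scale) of every spot of Egr1, Fos, Fosb and Fosl1 on replicates 1 to 4 (x axis); open markers were not well above background, the solid line is the dimmest spot marked well above background on that array and the dotted line the median negative control. Egr1 lay at 30.8 to 48.1, above the solid line on each array, and the Fosl1 spots lay under it on each array.

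Fosl2 encodes Fra-2, a Fos protein that lasts longer after a stimulus than c-Fos, and it was the Fos gene that was detected. Its 3 probes, 1 spot each, were all well above background on every array. The brightest read 256.7, 230.6, 254.2 and 213.2 on replicates 1 to 4, or -1.78, -2.02, -2.28 and -1.96 relative to the 75th percentile (-2.01 ± 0.21, SD, n = 4 arrays). The others averaged -2.17 ± 0.12 and -2.36 ± 0.31 (SD, n = 4 arrays), with replicate 3 lowest on the first of these after scaling and replicate 4 lowest on the second. As intensities, replicate 4 was lowest on both. Once each was centred on its own mean, the 3 probes differed by up to 0.44 on the log2 scale on an array. The median of this gap was 0.27 over the 1754 genes with several detected probes.

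Atf3 encodes a partner of Jun proteins that is made in many kinds of stress and can repress cytokine genes in macrophages. It was read by 1 probe with 2 spots. The mean intensity was 2376, 2520.1, 4306 and 2896 on replicates 1 to 4, or 1.44, 1.43, 1.80 and 1.80 relative to the 75th percentile (1.62 ± 0.21, SD, n = 4 arrays). After scaling, replicates 3 and 4 lay together above replicates 1 and 2, with a span of 0.37 on the log2 scale. As intensities, replicate 3 was highest and replicate 4 lay nearer to replicates 1 and 2. Its spread exceeded that of 92.4% of the 132 probes with 2 spots and a like level. The 2 spots of an array had an SD of 0.065 to 0.127.

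Egr1 encodes the zinc finger factor that growth factors induce alongside Fos. Its single spot read 48.1, 47.6, 44.8 and 30.8 on replicates 1 to 4, each well above background. Relative to the 75th percentile this was -4.19, -4.29, -4.79 and -4.75 (-4.51 ± 0.31, SD, n = 4 arrays). Replicate 4 was lowest as an intensity, and replicate 3 after scaling to the 75th percentile. Egr2 encodes a related factor that is known for myelination and, in macrophages, for alternative activation. Its brighter probe read 749, 768, 1043 and 678, or -0.23, -0.28, -0.25 and -0.29 (-0.26 ± 0.03, SD, n = 4 arrays). The 4 arrays were nearly level, and only 1.03% of tested genes had a smaller SD. Its other probe read 247.6, 203.6, 232.3 and 278.9, or -1.83, -2.20, -2.41 and -1.58 (-2.00 ± 0.37, SD, n = 4 arrays). On that probe replicate 4 was highest and, after scaling, replicate 3 lowest (replicate 2 as an intensity), and its spread was above that of 94.4% of the 1296 single-spot probes of like level.

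The promoters of Egr1 and Egr2 share a sequence element that the choice of genes did not use. RefSeq promoter windows of the assembly GRCr8 (250 bases before to 50 bases after the gene start) were at hand for 7 of the 10 genes: Junb, Jund, Fosb, Fosl1, Fosl2, Egr1 and Egr2. The CArG box, the core of the serum response element that binds SRF, was found in the windows of Egr1 (2 copies) and Egr2 (1 copy) and in 1.64% of all 33469 windows. The copy that starts 83 bases before the gene start has the same 10 letters in both genes. The stretches around these boxes are shown because this element is the textbook route by which immediate early genes answer growth factors, and capitals mark each box. Egr1 lies at chr18:26736948-26737024, plus strand, and Egr2 at chr20:21054495-21054549, minus strand, both in GRCr8 and both upstream of the gene start.
Egr1: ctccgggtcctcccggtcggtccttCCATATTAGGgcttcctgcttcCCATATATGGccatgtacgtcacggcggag
Egr2: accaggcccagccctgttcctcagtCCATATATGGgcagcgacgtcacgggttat

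Jund carries a different element, the cyclic AMP response element TGACGTCA, to which Jun and ATF dimers can bind, 221 bases before its start. This motif was found in 1 of the 7 windows and in 1.83% of all windows, on either strand. The stretch is chr16:18769965-18770012 of GRCr8, minus strand, and capitals mark the element.
Jund: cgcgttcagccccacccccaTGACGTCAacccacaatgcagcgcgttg

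The AP-1 site TGACTCA was in 0 of the 7 windows and in 4.63% of all windows, and the Jun-type variant TGACATCA in 0 of 7 and in 4.34% of all. The EGR sites GCGTGGGCG or GCGGGGGCG were in the windows of Jund and Fosl2 and in 3.20% of all windows. The shorter motif CCAAT was in 4 of the 7 windows and in 37.5% of all, and TATAAA in 2 of 7 (Junb and Fosb) and in 14.2% of all. All motifs were searched on both strands. The 7 windows had a median GC content of 64.7%, against 51.7% over all windows, and Fosb was lowest at 47.7%. A match describes the letters of the window and no binding was measured.

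For the genes with several detected probes, the probes often gave different pictures of the 4 arrays. The ratio of the highest to the lowest SD among the probes of 1 gene was 12.6 for Egr2, 4.91 for Jun, 3.26 for Jund and 2.58 for Fosl2. Over 1754 genes with several detected probes the median ratio was 1.85, and the Egr2 ratio was above that of 99.1% of them and the Jun ratio above that of 90.8%. After each probe was centred on its own mean, the probes of a gene differed on some array by up to 0.45 for Jun, 0.47 for Jund, 0.44 for Fosl2 and 0.46 for Egr2, against a median of 0.27 over the 1754 genes. The 4 genes were therefore alike in the size of the gap and unlike in which probe was steady. The number of spots differed between the Jun probes and not between the Egr2 probes. Level differed too: single-spot probes like the dimmer Jund probe had a median SD of 0.243, and those like the brighter one 0.119. For the dimmer and brighter Egr2 probes these medians were 0.162 and 0.128. The part of spots or of level in the spread was not tested. Over all detected named probes the median SD was 0.154 with 1 spot, 0.111 with 2 and 0.117 with 10.

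**Figure D3:**
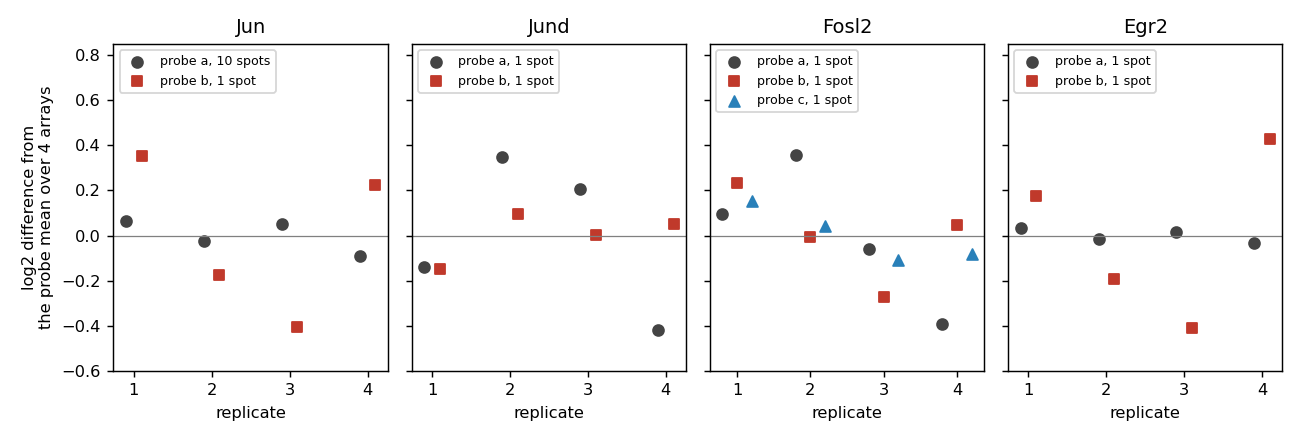
Difference of each probe from its own mean over the 4 arrays (y axis, log2 units) by replicate (x axis) for Jun, Jund, Fosl2 and Egr2, 1 marker per probe. The 10-spot Jun probe and the first Egr2 probe stay near 0, while the other probe of each gene is lowest on replicate 3.

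Whether any of these genes varied between the 4 cultures more than genes of like signal was tested with limma on all 8455 detected genes that had a value on every array, using the brightest probe of each gene. The test called 20 genes (0.237%) at an adjusted p of 0.05, and 0 of the 7 detected AP-1 and EGR genes. Jun came nearest (SD 0.35, against 0.12 fitted for its signal), with an adjusted p of 0.437 in limma and an unadjusted p of 0.00703, the 1 value under 0.05 among the 7, where 532 of the 8455 tested genes had one. Junb (adjusted p = 0.890, limma) and Atf3 (adjusted p = 0.932, limma) followed, and the other 4 had an adjusted p of 0.995 to 0.999. Without trend and robust fitting limma also called 0 of the 7. With the 10-spot probe in place of the brightest one, a choice made after seeing the data, the adjusted p of Jun was 0.995 in limma.

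The median SD was 0.211 over the 7 genes and 0.144 over all 8455. Jun, Junb and Egr1 stood at percentiles 92.4, 90.2 and 89.5 of all tested genes, Atf3 and Fosl2 at 74.0 and 73.7, Jund at 29.9 and Egr2 at 1.03. None of the 7 spanned more than 2-fold between its highest and lowest array, against 3.26% of all tested genes that did. The widest spans were 0.76 for Jun and 0.73 for Junb on the log2 scale. On replicates 1 to 4, 4, 3, 4 and 4 of the 7 genes lay above their own mean, where 43.6%, 55.6%, 42.1% and 59.5% of all tested genes did. Of the 12 detected probes, 5 were lowest on replicate 3, 5 on replicate 4 and 1 each on replicates 1 and 2, where 35.9%, 22.0%, 24.4% and 17.7% of all 10643 detected named probes were. The highest value fell on replicates 1 to 4 for 6, 3, 1 and 2 of the 12 probes, and for 17.2%, 25.7%, 19.8% and 37.4% of all detected named probes. The counts above the mean depended on the scaling: with no scaling they were 3, 3, 6 and 1, and with the median of all probes 4, 3, 4 and 2. So did the counts of lowest and highest arrays. As intensities, no detected probe of these genes was lowest on replicate 3 and most were highest there.

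**Figure D4:**
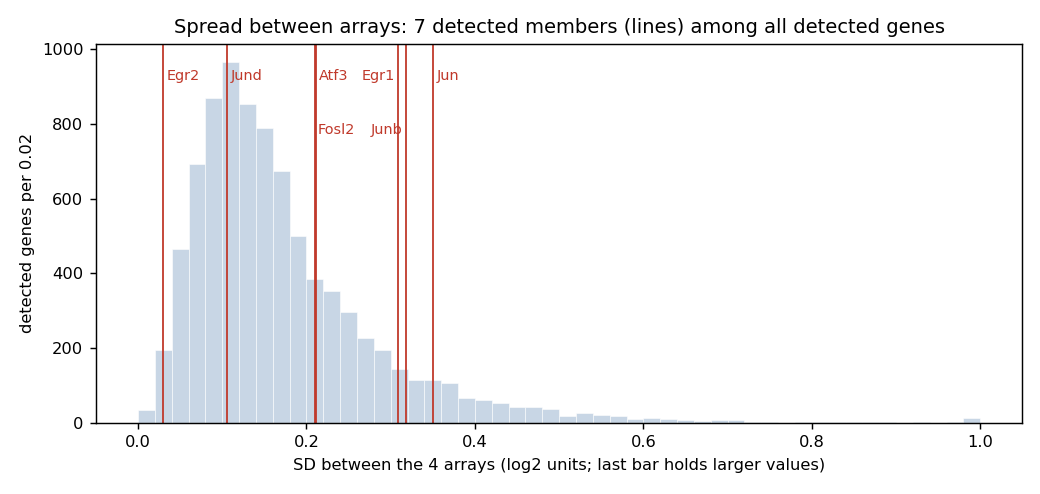
Number of detected genes (y axis) by SD between the 4 arrays (x axis, log2 units, bins of 0.02), with red lines at the 7 detected AP-1 and EGR genes, each by its brightest probe. Egr2 lies at the low edge with 0.03, and Egr1, Junb and Jun lie on the right shoulder between 0.31 and 0.35.

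Jun served to look for genes with a like pattern over the 4 arrays, measured as the root mean square difference of values centred on each gene's mean. The 3 nearest to its brightest probe were H2bc12, a histone H2B gene (0.021), Bmx, a tyrosine kinase (0.026), and Agps, an enzyme of ether lipid synthesis (0.027). H2bc12 was at 2.18, 1.60, 1.39 and 2.04 on replicates 1 to 4, high on the same arrays as the single-spot Jun probe. The 3 nearest to the 10-spot probe were other genes: Hyou1, a chaperone of the endoplasmic reticulum (0.012), Ankrd44 (0.014) and Cnpy2 (0.015). With 4 arrays of 1 condition these are descriptions of likeness only.

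Around the 10 factors, 106 of 146 listed pathway genes with a named probe were detected (72.6%), 4 partly and 36 not, beside 51.0% of all named genes. None of the 106 was called variable by the limma test, where 0.237% of all 8455 tested genes were. Of the 106, 7 spanned more than 2-fold, where 3.26% of all tested genes did. On their lowest arrays Atf7 (-5.73), Map2k7 (-5.54) and Il23a (-5.32) lay under Fos on replicate 3 (-5.22), where Fos did not pass. The spans of Atf7, Map2k7 and Il23a were thus read near the background limit. Of 21 AP-1 relatives, proteins with the same kind of leucine zipper, 19 were detected. Cebpa, a myeloid lineage factor, was not, and Batf, which pairs with Jun proteins in lymphoid and myeloid cells, was above background on 1 array. Batf3, its close relative, was detected (-2.83 ± 0.25, SD, n = 4 arrays), as was Jdp2, a repressor that pairs with Jun proteins (1.91 ± 0.27); both were picked after their values were seen. Atf7 had a span of 1.03, highest on replicate 4 (-4.70) and lowest on replicate 3 (-5.73).

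Of the 7 EGR relatives and corepressors, 5 were detected (71.4%, beside 51.0% of all named genes), and Egr4 and Wt1 were not. Among the detected were Egr3 (-4.73 ± 0.34, SD, n = 4 arrays) and the EGR corepressors Nab1 (1.02 ± 0.35) and Nab2 (1.82 ± 0.19), picked after their values were seen. Nab1 was lowest on replicate 2 (0.54) and Nab2 highest on replicate 3 (2.02). Neither was called variable by limma (adjusted p = 0.510 and 0.969), and the likeness of their patterns was not tested.

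Of 29 other immediate early genes, 19 were detected (65.5%, beside 51.0% of all named genes) and 10 passed the flag on no array. The 10 were Ier5l, Klf2, Nr4a3, Btg2, Dusp1, Zfp36, Ccn1, Ccn2, Arc and Sik1. Dusp1, a phosphatase that switches off MAP kinases, and Zfp36, which speeds the decay of cytokine RNA, are induced together with Fos in many cells. The 19 detected genes included Ier2, Ier3, Myc, Nr4a1, Dusp5, Dusp6 and Nfkbia, picked after their values were seen. A gene with 1 named probe can be missed because of that probe, so absence of a call is no proof of absence of the RNA.

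Upstream, 28 of 32 kinase and serum response genes were detected (87.5%, beside 51.0% of all named genes). Among them was the serum response factor Srf (1.45 ± 0.06, SD, n = 4 arrays), picked after its value was seen. The exceptions were Mapk10, the JNK gene known from neurons, Mapk11, Map2k6 and Map3k5. Elk1, an SRF partner, spanned 1.07 and Map2k7, a kinase of JNK, 1.54 on the log2 scale. Elk1 was highest on replicate 3 (-2.87) and Map2k7 lowest there (-5.54). Of 18 protein partners and turnover factors, 14 were detected (77.8%, beside the same 51.0%). The ubiquitin ligase Itch, Ankrd1, Nfatc2 and Smad3 were not, and the deacetylase Hdac3 had a span of 1.56 with replicate 4 lowest (-4.13).

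**Figure D5:**
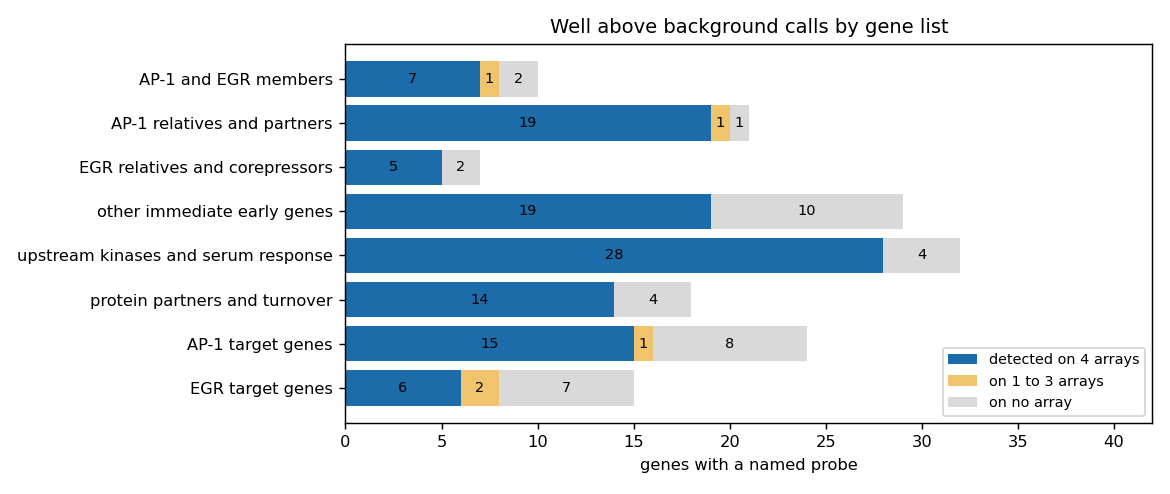
Number of genes with a named probe (x axis) in each list (y axis) that were well above background on all 4 arrays, on 1 to 3 arrays or on none. Of the AP-1 and EGR genes 7, 1 and 2 fell in these classes. In the EGR target list 6 of 15 genes were detected (40%, beside 51.0% of all named genes).

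Among 24 genes known as AP-1 targets, 15 were detected (62.5%, beside 51.0% of all named genes), 1 partly and 8 not. Not detected were the metalloproteinases Mmp10 and Mmp13, the cytokines Il6 and Csf2, the matrix protein gene Spp1, the growth factors Vegfa and Hbegf, and Ptgs2, the inducible prostaglandin synthase. Plau, the urokinase gene, was above background on 1 array. Il23a, a cytokine subunit, and Mt2A, a metallothionein, spanned 1.05 and 1.23 on the log2 scale, with Il23a highest on replicate 3 (-4.27) and Mt2A highest on replicate 4 (1.53). Of 15 genes known as EGR targets, 6 were detected (40%, beside 51.0% of all named genes), 2 partly and 7 not. The detected ones included Tnf, Icam1, Id2, Gadd45a and Txnip. Tnf was at 2.57, 2.82, 2.97 and 2.31 on replicates 1 to 4 (2.67 ± 0.29, SD, n = 4 arrays), highest on replicate 3 and lowest on replicate 4, as Junb was. Other listed genes, such as Plaur and Tgfb1, had the same highest and lowest arrays. Neither Tnf nor Junb was called variable by limma (adjusted p = 0.649 and 0.890), and a link between them was not tested.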

How the data were processed

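RNA of 4 NR8383 samples of 1 group was measured on 4 one-colour arrays that lie on 1 slide. Per the file headers, the deposited values are spot intensities from Agilent Feature Extraction 11.0.1.1, background-subtracted and detrended within each array, with flags of another kind (0 or 1) per spot; the authors' files hold no step between arrays. Probes were named through RefSeq (assembly GRCr8, for names and promoter sequence only, since the array header names another build), which gave 21109 of 45598 probes 1 gene. Spots with an outlier flag (1.11% to 1.45%) were left out, spots of a probe were averaged as log2, and the 75th percentile of each array was subtracted. A probe counted as above background where more than 50% of its spots did. A gene's value is that of its brightest probe. No spot was saturated. The number of arrays limits the precision.

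Variation was tested with limma 3.58.1 in R 4.3.3 (intercept only, eBayes with trend and robust fitting, upper-tail F test of the residual variance against the fitted variance, Benjamini-Hochberg over all detected genes). On simulated data with 200 genes of 4 times the fitted SD among 8455, it recovered 77% of them with 0 false calls. No smaller multiple was simulated. Jun, the detected factor with the largest SD, had 0.35 against 0.12 fitted, which is under 4 times. How often the test calls a spread of that size or less was therefore not tested. The remaining steps ran in Python 3.11.15 with pandas 2.3.3 and numpy 2.4.6, and figures were drawn with matplotlib 3.10.9. The genes and lists were chosen with earlier results of these data known. All 10 factors are named. From a list, the genes not detected are named where they are fewer, otherwise the detected ones, plus those over 2-fold; a few others are marked as picked later, and some genes of the lists are not reported here. Of the marker lists, 1 of 5 fibroblast, 3 of 5 endothelium, 1 of 5 T cell and 1 of 3 B cell markers with a named probe were detected. The labels call the samples biological replicates and do not say how the cultures were separated, so the SD may be partly technical.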

Additional observations from a re-analysis of the deposited data

Results flagged for a closer look

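None of the 15 AP-1 and EGR probes had an array far from the other 3 by Dixon's ratio at its 95% critical value. Of the 106 detected pathway genes 4 did, and chance alone picks out about 1 in 20 groups. In all 4 the array apart, after scaling, was replicate 3. Map2k2, a kinase of ERK, was at 1.36 there and between 1.63 and 1.65 on the others (ratio 0.924). Rps6ka1, a kinase that ERK activates, was at 3.24 there and between 3.50 and 3.55 on the others (ratio 0.831). Mmp3, a metalloproteinase, was at -3.94 there and between -4.77 and -4.64 on the others (ratio 0.837). Il23a was at -4.27 there and, near the background limit, between -5.32 and -5.24 on the others (ratio 0.926). After scaling, the 2 kinases were thus low and the other 2 genes high on that array. Its 75th percentile was the highest, 1237 against 831 to 932 on the others. As intensities, all 4 genes were highest on replicate 3.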

How the results depend on the processing

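Over the 9 other detection rules, 1 of them added after seeing the data, between 7 and 9 of the 10 genes were detected, and leaving out any replicate gave 7. The count of called genes over all tested genes was 20 and moved to 10 with quantile normalization, 58 with normexp, 13 with the mean of all probes, 79 with no detection filter, 4 without trend or robust fitting, and 3 to 63 when a replicate was left out (3 without replicate 3, 51 without replicate 1, 63 without replicate 2, 10 without replicate 4). In none of the 13 alternatives was an AP-1 or EGR gene called, with the lowest adjusted p for Jun at 0.181 (limma, no detection filter). With no scaling, and with the median of all probes, 1 of the 7 spanned more than 2-fold, Junb (1.31 and 1.06), and with no detection filter 2 did, Fos and Fosb. With no scaling the median of all tested genes lay 0.34 above its mean on replicate 3, and with the median of all probes 0.17. The SD of Jun ranged from 0.07 to 0.40 and that of Egr2 from 0.02 to 0.27 over 11 settings; for Jun the low end is the 10-spot probe, an alternative added after seeing the data. The cause of the other shifts was not tested. No paired analysis was possible because the series holds 1 group.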
